A study of Mus musculus with 6 samples.

Results

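The miR-15/16 family was represented by 8 of the 1881 mouse microRNAs (miRNAs) on the array: mmu-miR-15a-5p, mmu-miR-15b-5p, mmu-miR-16-5p, mmu-miR-195a-5p, mmu-miR-497a-5p, mmu-miR-322-5p, mmu-miR-503-5p and mmu-miR-1907 (mmu, the species prefix, is dropped in part of the text). The members were taken by name from the array annotation, whatever their signal. Each was read by 2 probes, and each probe was printed in 15 spots, so the family held 16 of the 4415 mouse probes. RNA came from exosomes, small vesicles that cells release, recovered from the culture supernatant of RAW 264.7, an established mouse macrophage cell line, on size-exclusion columns. Of the 6 exosome preparations, 3 came from untreated cells (control). The other 3 came from cells given lipopolysaccharide (LPS), a cell wall component of Gram-negative bacteria that macrophages sense through Toll-like receptor 4, at 2 µg/mL, with the supernatant taken after 72 h. Each preparation was hybridised to its own one-colour Cy3 array. Both groups share the same cell line, the labels give no incubation time for the control cells, and nothing in them says whether the 3 preparations of a group came from separate cultures. The p-values below therefore measure the spread between these preparations, which may be technical.

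A miRNA guides an Argonaute protein to messenger RNAs that pair with its seed, bases 2 to 8 from the 5′ end. The miR-15/16 family is known for repressing cyclins, cyclin-dependent kinases and the survival protein BCL2, and loss of the miR-15a/16-1 locus is a classic lesion of chronic lymphocytic leukaemia. In macrophages and other leukocytes, miR-16 is among the abundant miRNAs and is often used as a reference in vesicle and serum studies. What these arrays measure is the miRNA content of vesicles, and more vesicles cannot be told apart from more miRNA per vesicle.

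Mature sequences from RefSeq (build GRCm38.p6) matched 7 of the 8 members and are shown because the shared seed defines the family and the bases after it decide how far the probes can separate members. Capitals mark the seed.
miR-15a-5p: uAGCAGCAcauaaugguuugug
miR-15b-5p: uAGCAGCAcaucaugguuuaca
miR-16-5p: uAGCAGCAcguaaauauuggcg
miR-195a-5p: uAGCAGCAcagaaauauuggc
miR-497a-5p: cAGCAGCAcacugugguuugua
miR-322-5p: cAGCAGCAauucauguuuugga
miR-503-5p: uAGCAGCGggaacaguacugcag
The first 6 share the seed AGCAGCA, and miR-503-5p has AGCAGCG. Read from the 5′ end, miR-15a-5p and miR-15b-5p were identical at 18 of 22 bases. miR-16-5p matched miR-15a-5p at 16 bases but miR-195a-5p at 19. Among the 1608 array miRNAs with a RefSeq mature sequence, 10 carried AGCAGCA and 1 carried AGCAGCG. The 4 that are not members (miR-195b, miR-6342, miR-6353 and miR-6419) were not detected on any of the 6 arrays. Neither was miR-497b, whose gene overlaps that of miR-497a on chromosome 11.

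The array probes pair with the miRNA from its 3′ end inwards, and the 2 probes of most members differ by 1 base at the probe's 3′ end, which is shown in capitals for the longer probes of the 4 members discussed most.
miR-15a-5p probe: cacaaaccattatgtgctgctA
miR-15b-5p probe: tgtaaaccatgatgtgctgC
miR-16-5p probe: cgccaatatttacgtgcT
miR-195a-5p probe: gccaatatttctgtgctgC
The miR-15a-5p and miR-15b-5p probes each had 4 mismatches to the other miRNA. The 18-base miR-16-5p probe had 3 mismatches to miR-195a-5p, and the 19-base miR-195a-5p probe had 2 to miR-16-5p, the smallest numbers of mismatches between members. Cross-hybridisation between them was not tested.

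The array annotation (mouse build mm9) placed the longer miR-15a-5p probe at chr14:62250879-62250899 on the minus strand and the miR-15b-5p probe at chr3:68813700-68813718 on the plus strand. miR-16-5p is made from both places, and its probe was listed at chr3:68813844-68813861 and chr14:62250736-62250753. In the RefSeq annotation the chromosome 14 pair, Mir15a and Mir16-1, lies inside Dleu2, a long non-coding RNA gene, and the chromosome 3 pair, Mir15b and Mir16-2, lies inside Smc4, which codes for a condensin subunit. A miR-16-5p signal cannot be assigned to either locus, because the mature product is the same. The miR-195a-5p probe was at chr11:70048566-70048584 and the miR-497a-5p probe at chr11:70048234-70048253, both on the plus strand, with Mir195a and Mir497 as neighbours. The miR-322-5p probe (chrX:50407455-50407475) and the miR-503-5p probe (chrX:50407174-50407188) were on the minus strand, where Mir322 and Mir503 lie in the long non-coding gene C430049B03Rik.

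Between 213 and 228 miRNAs were detected on a control array and between 412 and 446 on an LPS array. The 75th percentile of the signal over the 198 miRNAs detected on all 6 arrays was 431 to 510 scanner units in control and 2022 to 2343 in LPS, whereas the geometric mean of the 4 spiked-in RNAs was 2623 to 2791 in control and 2168 to 2483 in LPS. Arrays were scaled to that 75th percentile, so a scaled change is relative to the other miRNAs on the array. All 6 macrophage markers examined (among them miR-223-3p and miR-155-5p) were tested and higher in LPS, with a summed signal of 4691 to 5731 in control and 55606 to 70621 in LPS. Most of that sum came from miR-21a-5p (means of 3287 in control and 39375 in LPS) and miR-146a-5p (1849 and 22022). The control means of miR-223-3p and miR-155-5p were 42.6 and 38.3. Of 8 serum and erythroid miRNAs, 7, including miR-451a, miR-144-3p and miR-122-5p, were not detected. The other, miR-192-5p, was detected on the 3 LPS arrays only and called higher. Its mean signal was 15.5 in control and 154 in LPS. With this scaling it was at least 1.02-fold higher, a limit that moves with the scaling. The list summed to 46.7 to 47.5 in control and 208 to 230 in LPS, most of the latter from miR-192-5p. The part of this list in the results below was not tested. Of the lymphocyte, epithelial, muscle and neural lists, 2 of 3, 1 of 6, 0 of 3 and 1 of 3 members were tested. Each was called higher, as were 65.5% of all 412 tested miRNAs. The macrophage calls are read against that share too. miR-181a-5p, miR-181b-5p and miR-200c-3p were not detected in control. Against the control limit their LPS means stood at 0.35, 0.52 and 0.24 fold, so no fold is given. The neural list summed to 32.6 to 41.6 in control and 604 to 702 in LPS. Most of it came from miR-128-3p (means of 33.97 and 664). Its LPS sum was above that of the serum and erythroid list. The header's feature size fraction was 0.6 on control arrays and 0.812 to 0.829 on LPS arrays, which cannot be told apart from the treatment. The control arrays and LPS replicate 1 lay on row 1 of the slide and LPS replicates 2 and 3 on row 2, so row 1 is the only row with both groups. A fit that blocks on the row, and a comparison inside row 1 (scaled afresh), therefore both rest on LPS replicate 1 alone against the 3 controls. Their changes are given beside the results as values of that array, and no call is read from them.

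In exosomes of LPS-treated cells, miR-15b-5p, miR-16-5p and miR-15a-5p were all higher than in control exosomes, by 3.0, 2.51 and 2.02 fold of the scaled signal (n = 3 preparations a group). These were the only members with a signal well above background on all 6 arrays, which the scanner software flags spot by spot and which was required of over 50% of a probe's spots. miR-195a-5p, miR-497a-5p, miR-322-5p and miR-1907 were detected on the 3 LPS arrays and on no control array. miR-503-5p was detected on none. Of the 8 members, 7 could be tested (detected on all 3 arrays of at least 1 group), 5 were called higher and 0 lower with limma and Benjamini-Hochberg adjustment over 412 miRNAs at 0.05. Over all 412, 65.5% were called higher and 26.7% lower, so the family's share is read against a majority of miRNAs that were higher. Of the 5 members called, miR-195a-5p and miR-497a-5p were detected in LPS only. With the flag for signal well above background in place of the detection call, 6 members were tested and 4 called higher, as miR-497a-5p was then not called. The call of miR-195a-5p there rests on control values raised to the floor, the value that lower signals are set to. With unscaled arrays all 7 tested members were called higher.

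**Figure D1:**
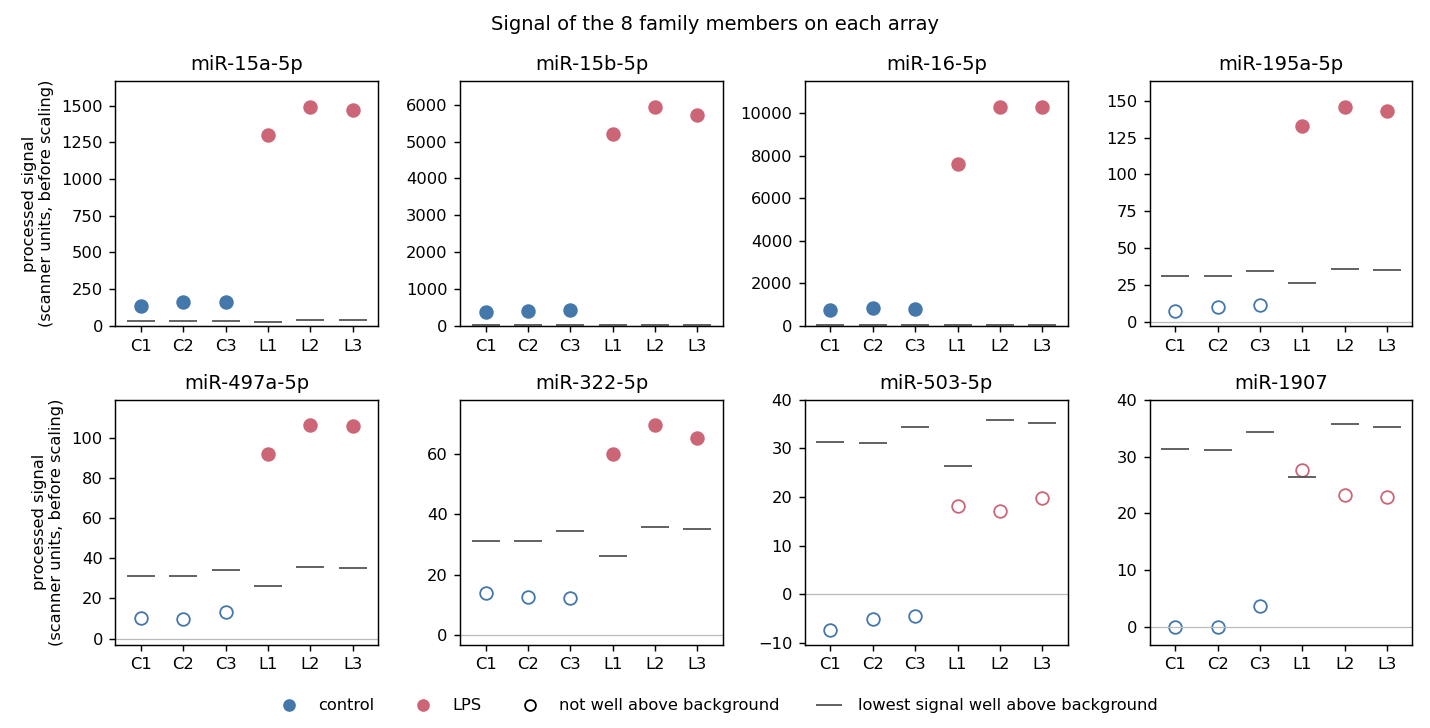
Processed signal (vertical axes, scanner units before scaling, a separate scale for each panel) of the 8 members on control arrays C1 to C3 and LPS arrays L1 to L3; grey dashes give the lowest signal well above background on that array and open circles mark probes not well above background. miR-15a-5p, miR-15b-5p and miR-16-5p lie far above the dashes on all 6 arrays, miR-195a-5p, miR-497a-5p and miR-322-5p only on the LPS arrays, and miR-503-5p and miR-1907 on neither group by the spot flags.

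mmu-miR-15b-5p, a member encoded in Smc4, had the largest change of the members measured in both groups. Its processed signal was 367, 417 and 420 on the control arrays and 5208, 5931 and 5721 on the LPS arrays. Every LPS array was above every control array, by a wide margin and with little spread inside either group. After scaling, the log2 values were 9.78, 9.72 and 9.78 in control against 11.37, 11.35 and 11.31 in LPS. On these scaled values, 66.3% of the 412 tested miRNAs had every LPS array above every control array. The log2 change was 1.58 (SE 0.040, adjusted p = 9.13e-08 with limma). Blocking on the slide row gave 1.61, and row 1 alone gave 1.65.

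mmu-miR-16-5p, the product of both Mir16 loci, gave processed signals of 737, 843 and 808 in control and 7607, 10292 and 10282 in LPS. LPS replicate 1 was the lowest of its group, yet the groups did not overlap. The scaled log2 values were 10.78, 10.73 and 10.73 in control and 11.92, 12.14 and 12.15 in LPS, so that replicate 1 stayed apart from the other LPS arrays after scaling too. The log2 change was 1.33 (SE 0.072, adjusted p = 3.20e-06 with limma), with the largest SE of the 3 measured members. Blocking on the slide row gave 1.17, and row 1 alone gave 1.21, where LPS replicate 1 is the LPS array compared.

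mmu-miR-15a-5p, which shares the Dleu2 locus with Mir16-1, had processed signals of 136, 158 and 158 in control and 1302, 1489 and 1471 in LPS. Again the groups lay far apart. Scaled log2 values were 8.34, 8.32 and 8.37 in control and 9.37, 9.35 and 9.35 in LPS. The log2 change was 1.02 (SE 0.035, adjusted p = 3.37e-07 with limma), 1.03 with the row as a block and 1.06 within row 1.

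Before scaling, the mean signal was 9.44 times the control mean for miR-15a-5p, 14 times for miR-15b-5p and 11.8 times for miR-16-5p. How large the change appears thus depends on what the arrays are scaled to, and the median change over the 198 miRNAs detected on all arrays moved with it, from 0.77 on the log2 scale here to 2.99 without scaling and 3.18 when scaled to the spiked-in RNAs. Relative to that median, the changes were 0.25 for miR-15a-5p, 0.82 for miR-15b-5p and 0.56 for miR-16-5p, which a scaling by 1 factor per array cannot alter. In the 5 settings that change the values in another way (quantile normalization, normexp background, the scanner software's gene total, the mean over probes and the authors' table), miR-15a-5p lay 0.21 to 0.97 above the median, miR-15b-5p 0.84 to 1.55 and miR-16-5p 0.51 to 1.32. Among the 162 miRNAs well above background on all 6 arrays, ordered from the highest change, miR-15b-5p was at rank 34, miR-16-5p at 47 and miR-15a-5p at 65. Of the 198 miRNAs detected on all arrays 58.1% were called higher and 38.4% lower. In the set of 162, 56.8% were called higher and 41.4% were called higher by at least 2-fold, as these 3 members were.

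**Figure D2:**
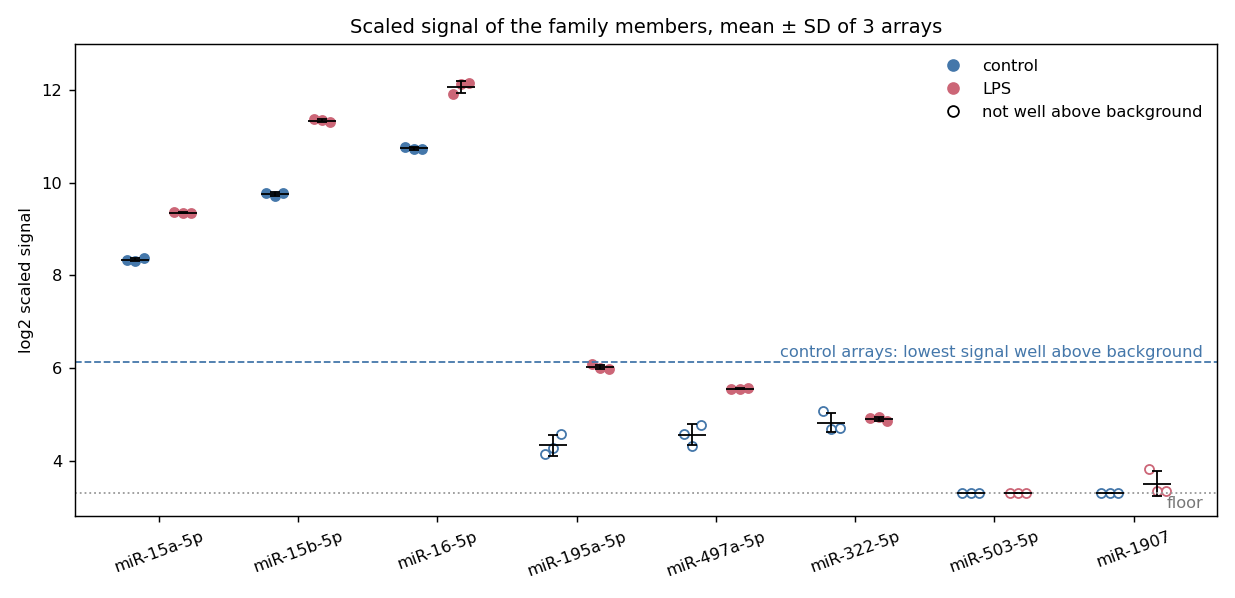
Scaled log2 signal of each member, points for single arrays (open where not well above background) and bars for the mean ± SD of 3 arrays; the dashed line is the mean over control arrays of the lowest signal well above background and the dotted line the floor of 3.31. The groups of miR-15b-5p, miR-16-5p and miR-15a-5p are separate, while the LPS values of the other 5 members lie at or below the control limit. Heights are not compared between miRNAs, because probes differ in brightness.

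The members detected in LPS exosomes only were the neighbouring pair miR-195a-5p and miR-497a-5p of chromosome 11, miR-322-5p and miR-1907. The processed signal of mmu-miR-195a-5p was 7.41, 9.59 and 11.4 in control and 133, 146 and 143 in LPS. None of the control values was well above background, and all of the LPS values were. The lowest signal well above background was 31.1 to 34.4 on control arrays and 26.3 to 35.8 on LPS arrays, but scaling divides LPS arrays by more, so that the limit on control arrays stood at 5.97 to 6.22 log2 units against 3.74 to 3.97 on LPS arrays. The mean of miR-195a-5p in LPS was 6.02 and so did not pass the control limit. The fit gave a log2 change of 1.69 (SE 0.11, adjusted p = 1.00e-05 with limma), which rests on control values below background. The change was 1.74 when blocked on the row and 1.78 in row 1. With the well-above-background flag as the detection call it was 0.44. That setting raises the floor above all 3 control values. The 0.44 is then the distance of the LPS values from the floor, and nothing is read from the call there. The fold that the limit allows was 0.932, under 1, so no fold is given. The bound rises to at least 2.13-fold with the 75th percentile taken over all miRNAs, at least 4.36-fold without scaling and at least 4.97-fold with spiked-in scaling, and falls to 0.749 with median centring.

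mmu-miR-497a-5p was likewise at background in control, with 9.93 to 13.1 over the control arrays and 92.4, 107 and 106 in LPS. Here too the groups did not overlap and no control array was well above background. The fit gave 0.99 (SE 0.11, adjusted p = 0.000164 with limma) and a call. The change was 0.995 when blocked on the row and 1.03 in row 1. With the well-above-background flag as the detection call, which raises the floor, it was 0.00012 and was not called. No fold is given on the main scale. The bound was at least 1.54-fold with the 75th percentile over all miRNAs, at least 3.15-fold without scaling and at least 3.59-fold with spiked-in scaling, but 0.542 with median centring. For this miRNA the scanner software's own total over both probes was 1151, 1442 and 1389 on the LPS arrays. Its 2 probe totals there summed to 31.6, 37.4 and 35.6. miR-1907 differed too, with totals of 255 and 246 against probe sums of 14.6 and 14.1 on LPS replicates 2 and 3. In miR-15b-5p the total and the sum were equal to within rounding. The cause was not tested.

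mmu-miR-322-5p, the mouse counterpart of human miR-424, had processed signals of 14.1, 12.7 and 12.5 in control and 59.8, 69.5 and 65.3 in LPS. The LPS arrays were above the control arrays before scaling and overlapped with them after it. The fit gave a log2 change of 0.083 (SE 0.11, adjusted p = 0.484 with limma), which did not pass. It was 0.11 with the row as a block and 0.14 within row 1. It was called higher without scaling (1.79) and lower with the mean over both probes (-0.36), so its direction is not settled. mmu-miR-1907 had -0.055, -0.14 and 3.59 in control and 27.6, 23.2 and 22.9 in LPS, with no array well above background. Its change of 0.20 (SE 0.13, adjusted p = 0.193 with limma) did not pass. It was 0.50 when blocked on the row and 0.53 in row 1, values that rest on LPS replicate 1, where 40% of its spots were well above background against 0% on LPS replicates 2 and 3. mmu-miR-503-5p, the partner of miR-322-5p, read -7.35, -5.07 and -4.48 in control and 18.1, 17.1 and 19.7 in LPS, and its level was below detection on all 6 arrays. Of the 4 members detected in LPS only, 0 had a bound above 1 on the main scale, against 20.9% of the 187 tested miRNAs of this kind.

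The probes of a member were next set against each other, since both read the same RNA on the same array. Of 665 probes tested, 67.5% were called higher and 25.6% lower. Both probes of miR-15a-5p were called higher, with log2 changes of 0.96 for the 21-base and 1.02 for the 22-base probe. The same held for miR-15b-5p (1.51 for 19 bases and 1.58 for 20 bases) and for miR-16-5p (1.41 for 17 bases and 1.33 for 18 bases). Within an array the longer probe of miR-15b-5p gave 4.56 ± 0.046 times the signal of the shorter in control exosomes and 4.81 ± 0.044 times in LPS exosomes (SD over 3 arrays). The ratio was 1.21 ± 0.0066 and 1.26 ± 0.029 for miR-15a-5p, and 3.48 ± 0.072 and 3.29 ± 0.077 for miR-16-5p. The ratio was thus slightly higher in LPS for the miR-15 members and slightly lower for miR-16-5p. The probes of miR-195a-5p gave 0.72 for 18 bases and 1.69 for 19 bases, both against control values below background, so these sizes are not compared. The shorter probes of miR-497a-5p and miR-322-5p were not well above background in enough arrays to be tested.

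**Figure D3:**
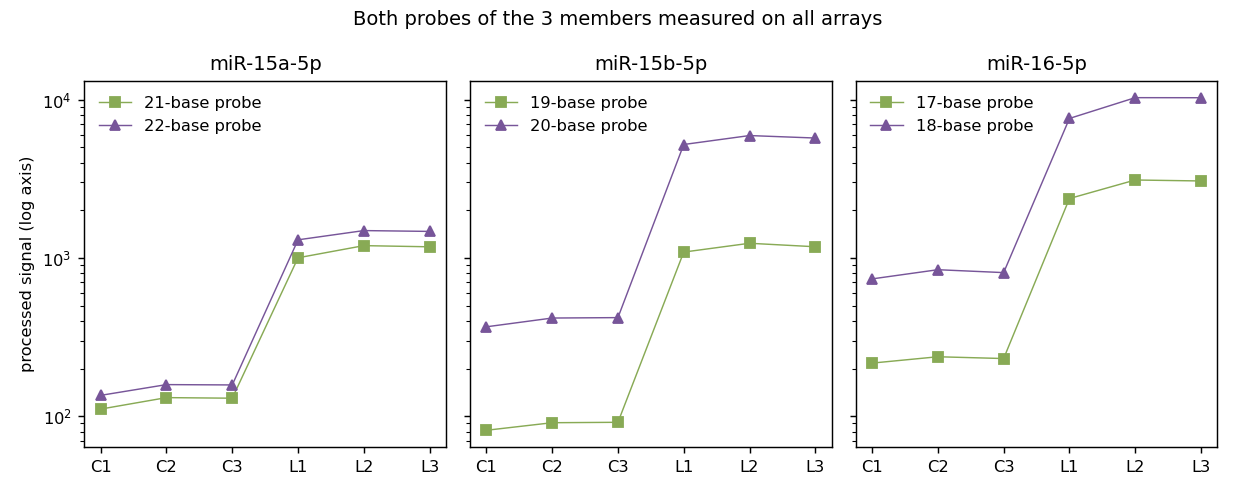
Processed signal (logarithmic axis, scanner units) of the shorter and the longer probe of miR-15a-5p, miR-15b-5p and miR-16-5p on arrays C1 to C3 (control) and L1 to L3 (LPS); lines join the values of a probe for reading only. Both probes of each miRNA step up between the control and the LPS arrays, at a nearly constant distance from each other.

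Differences between members within an array do not depend on how whole arrays are scaled. miR-15a-5p minus miR-15b-5p was -1.42 ± 0.021 on the log2 scale in control and -1.98 ± 0.022 in LPS (SD over 3 arrays), a change of -0.57, so that miR-15b-5p gained 1.48-fold on miR-15a-5p. miR-15a-5p minus miR-16-5p went from -2.40 ± 0.044 to -2.71 ± 0.14, a change of -0.31. miR-15b-5p minus miR-16-5p went from -0.99 ± 0.038 to -0.73 ± 0.16, a change of 0.26. The control and LPS arrays did not overlap in any of the 3 differences. How many pairs of other miRNAs separate in the same way was not counted, so this is not read as particular to the family. The two-sided exact permutation test gave p = 0.1 for each (0.1 after adjustment over 3 pairs), which is the smallest p that 3 against 3 arrays can give.

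The difference between miR-15a-5p and miR-15b-5p, whose genes lie in different loci, was nearly the same on the 3 LPS arrays and was -0.58 within row 1. The differences that involve miR-16-5p were less even. miR-15b-5p minus miR-16-5p was -0.55 on LPS replicate 1 and -0.80 and -0.85 on the other two. Its change was 0.17 without LPS replicate 1 and 0.44 within row 1, and it turned to -0.20 in the authors' normalised value table. The change of miR-15a-5p minus miR-16-5p was -0.14 within row 1 and -0.91 in that table.

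**Figure D4:**
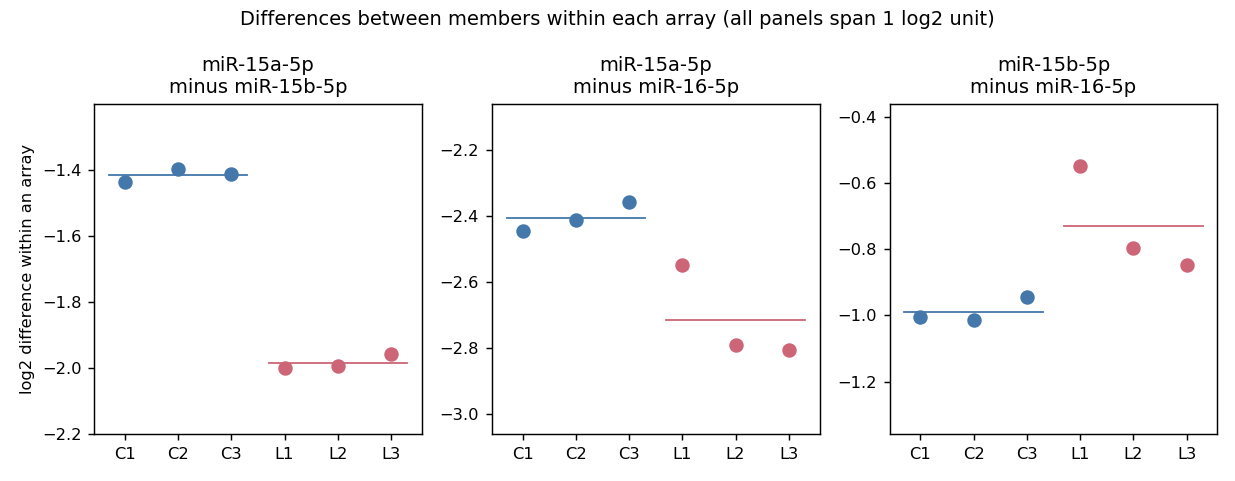
Log2 difference between 2 members on the same array, for the 3 pairs of members measured on all arrays; points are arrays C1 to C3 (control) and L1 to L3 (LPS), lines are group means, and each panel spans 1 log2 unit. The groups are separate in each panel, most tightly for miR-15a-5p minus miR-15b-5p, and L1 stands apart from L2 and L3 in both panels with miR-16-5p.

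The opposite arms of the family hairpins, which are usually degraded when the guide arm is loaded, were mostly below detection, with 7 of the 8 on the array not detected. miR-15b-3p was detected on the LPS arrays only, with processed signals of 28.9, 37.6 and 31.8 against 17.6, 13.2 and 11 in control. Its fit was -0.97 (adjusted p = 0.00545 with limma) while its unscaled signal was higher in LPS, and no control array was well above background, so its direction is not settled. Of the 9 miRNAs encoded beside miR-322 and miR-503 (the miR-351, miR-542 and miR-450 arms), 6 were not detected, and miR-450a-5p and miR-450b-3p were detected on 1 and 2 LPS arrays. miR-351-3p was the only one tested, with -2.86, -1.15 and -1.86 in control and 53.9, 67.0 and 66.2 in LPS. It was called higher (1.54, adjusted p = 1.21e-07 with limma), with a bound under 1.

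miR-103-3p and miR-107-3p, products of Pank gene introns, carry the family's core seed bases shifted by 1 position. The processed signal of miR-107-3p was 168, 208 and 205 in control and 2048, 2353 and 2332 in LPS, with no overlap. Its log2 change of 1.32 (SE 0.041, adjusted p = 2.07e-07 with limma) lay beside that of miR-16-5p. miR-103-3p was not well above background on control arrays (25.8, 29.6 and 27.9) and read 696, 833 and 866 in LPS. On the main scale its LPS mean was at least 5.28-fold higher, a bound that moves with the scaling. Over the 6 arrays, the miRNAs whose scaled profile lay closest to that of miR-16-5p, among the non-members detected on all arrays, were miR-146a-5p, miR-27a-3p and miR-20b-5p. Their root mean square distances were 0.026, 0.049 and 0.049 log2 units.

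The median log2 change of the 7 tested members was 1.02, against 0.85 over all 412 tested miRNAs. Of these, 4 members and 187 of the 412 miRNAs were detected in LPS only, so their changes rest on control values below detection. Over miRNAs detected on all 6 arrays, the medians were 1.33 for the 3 members and 0.77 for all 198. The changes of the 3 members measured in both groups were positive and called under every scaling, background and probe rule that was run. Per miRNA, the lowest were 0.66 for miR-15a-5p and 0.83 for miR-16-5p with quantile normalization, and 1.27 for miR-15b-5p with median centring. The highest, with spiked-in scaling, were 3.43 for miR-15a-5p, 3.74 for miR-16-5p and 4.0 for miR-15b-5p. For the shorter probes alone, normexp gave 0.56 for miR-15a-5p, 0.91 for miR-15b-5p and 1.21 for miR-16-5p. The members at the background did not keep their direction. The normexp model, which separates signal from local background, was run with an offset of 50 added to the signal. That offset was larger than any processed control signal of these members. With normexp, miR-195a-5p (-0.59), miR-497a-5p (-0.79), miR-322-5p (-0.83) and miR-1907 (-0.61) were all called lower, as were 68.9% of the 412 tested miRNAs.

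**Figure D5:**
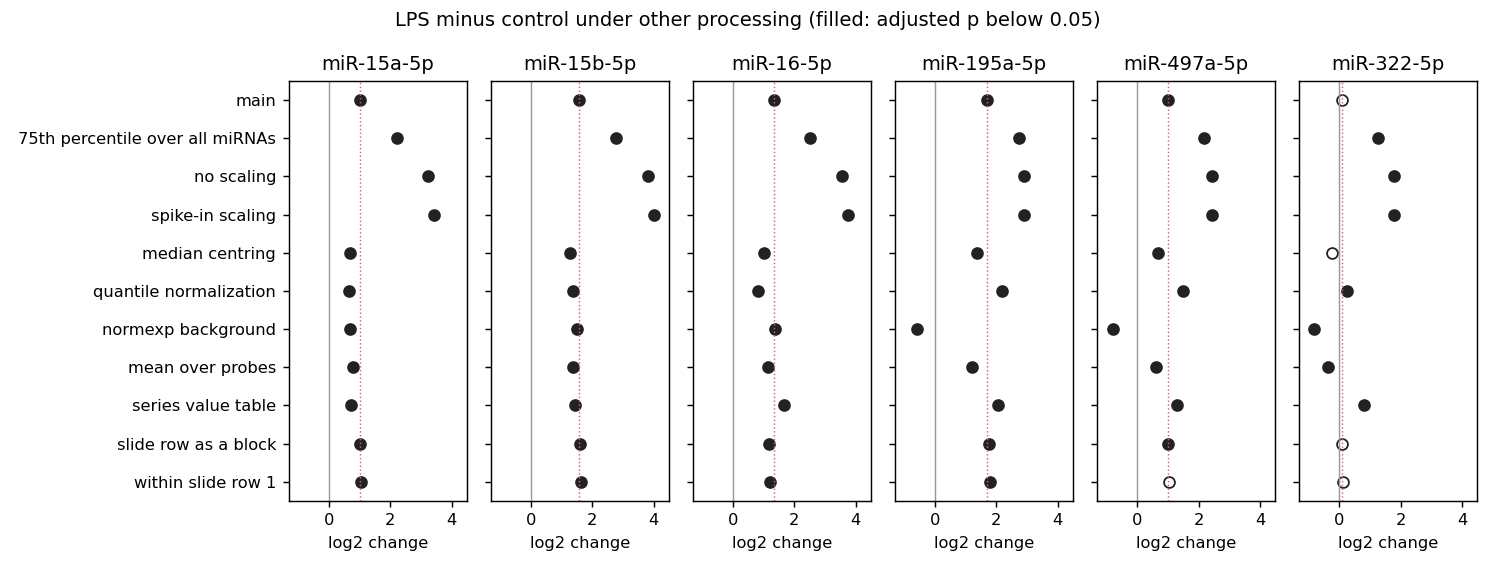
Log2 change (LPS minus control, horizontal axes) of 6 members under 11 processing settings, filled where the adjusted p is below 0.05; the dotted line is the main value and the grey line 0, and the last 2 settings (slide row) rest on LPS replicate 1 alone. The 3 members measured on all arrays stay to the right of 0 in each setting shown, whereas miR-195a-5p, miR-497a-5p and miR-322-5p cross it with normexp background correction and miR-322-5p also with median centring (-0.23) and the mean over probes (-0.36).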

How the data were processed

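The deposited scanner files hold intensity values from Agilent Feature Extraction, version 10.7.1.1 per the file headers (9.1 in the submitters' processing notes), background-subtracted and detrended by that software, with flags (0 or 1) for detection. The authors also deposited a table of log2 values with a normalization that the sources used here do not state. Processed signals were averaged over spots without outlier flags, and the brightest probe represented a miRNA. Arrays were scaled to the 75th percentile over miRNAs detected on all 6, floored at 9.89 and tested with limma 3.58.1 in R 4.3.3 (adjusted p below 0.05). The limma fit was tried on simulated log2 values and the permutation test on invented ones. Scaling, flooring, detection and bounds were not tried in this way. A bound sets the LPS mean against the higher of the control array's lowest signal well above background and the probe's own. Members, related miRNAs and lists were chosen with earlier results of these data known. The miRNAs named are the members, those sharing a seed, opposite arms, neighbours, miR-103/107, the 3 profiles closest to miR-16-5p and cell type markers. No member spot was saturated. The number of arrays limits the precision.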

Additional observations from a re-analysis of the deposited data

How the results depend on the processing

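The 3 members measured in both groups kept their direction and their call in all settings run. The count of members called higher, 5 of 7, was 7 with the percentile over the whole array, unscaled arrays, quantile normalization, the spiked-in RNAs and the authors' table, 6 with the gene total, the mean over probes and a lower floor, 4 of 6 with the well-above-background flag, and 3 with normexp and with detection on all 6 arrays, where 3 were tested; 4 were called lower with normexp and 1 with the mean over probes (miR-322-5p, -0.36). With median centring miR-322-5p was -0.23, not called. normexp gave -0.59 for miR-195a-5p (19-base probe -0.59, 18-base probe -1.34), -0.79 for miR-497a-5p (probe fit -0.88), -0.83 for miR-322-5p (probe fit -1.24) and -0.61 for miR-1907. Over all miRNAs, calls higher numbered 113 with normexp, 115 with detection on all arrays and 170 with the well-above-background flag, against 270; against 110 calls lower there were 39 with unscaled arrays, 59 with the 75th percentile taken over the whole array, 38 with the spiked-in RNAs as reference, 284 with normexp and 269 without a filter. The split of calls was 65.5% higher and 26.7% lower, 88.3% and 9.47% with unscaled arrays, 81.8% and 14.3% with the percentile over the whole array, 89.8% and 9.22% with the spiked-in RNAs and 27.4% and 68.9% with normexp. The within-array changes (miR-15a minus miR-15b, miR-15a minus miR-16, miR-15b minus miR-16) were -0.70, -0.16 and 0.53 with quantile normalization, -0.83 and -0.68 for the first pairs with normexp, -0.72, -0.91 and -0.20 in the authors' table, and -0.14 and 0.44 for the last pairs within row 1, a setting chosen after seeing the data. Leaving out 1 array at a time gave -0.58 to -0.56, -0.39 to -0.26 and 0.17 to 0.32. The gene total of the scanner software gave 6.57 for miR-497a-5p and 2.82 for miR-1907, the latter not called. The cause of these shifts was not tested. Same-numbered control and LPS arrays correlated at -0.40, -0.22 and -0.28 in their deviations over 198 miRNAs, and arrays with different numbers at -0.32 to 0.43. These values cannot settle whether the numbers pair the arrays. With a replicate block, 5 members were called higher and 0 lower, and 270 and 110 miRNAs over all. Members near background on control arrays, all but 3, are limited by signal over background.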
